A study of Rattus norvegicus with 10 samples.

Results

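The striatum of the rat was set against the prefrontal cortex and amygdala in 8 of the 10 arrays of a study of cocaine treatment. The striatal arrays were the 4 titled with the caudate putamen or the nucleus accumbens, and the other class was the 4 titled with the prefrontal cortex or the amygdala. Each of these 4 regions had 1 array of total RNA from cocaine-treated rats and 1 from saline-treated rats. The strain, sex and age of the animals, the dose and timing of cocaine, and whether a sample pooled animals were not stated in the labels used. The 2 arrays of the ventral tegmental area were left out. Membership followed the array titles alone, and no measured value was used to choose arrays.

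The striatum is the main input station of the basal ganglia, and most of its neurons are GABA-releasing spiny projection neurons. Those of the direct pathway carry the dopamine D1 receptor and the peptide substance P, while those of the indirect pathway carry the D2 receptor, an adenosine receptor and enkephalin. The prefrontal cortex and most nuclei of the basolateral amygdala are instead built around glutamate-releasing excitatory neurons, whose axons reach the striatum, with GABA interneurons among them.

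Values are the expression index of the deposited table, a model-based intensity per probe set on a linear scale, and indices are compared only within a probe set. Pairs of values give the cocaine array first and the saline array second. Each mean ± SD over a class (n = 4) spans 2 regions and 2 treatments, so its SD holds the difference between regions. Differences are log2 striatum minus prefrontal cortex and amygdala from limma, with treatment as a term, and p-values are adjusted over 8696 probe sets. The labels do not say that arrays came from separate animals, so these p-values measure only the spread between these 8 samples. In dissected tissue, more cells of a type and more RNA per cell cannot be told apart.

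Arrays of the striatum resembled each other closely, and those of the other class less so. Over the 8365 probe sets measured on every one of the 8 arrays, the log2 index correlated with r of 0.983 to 0.993 within the striatum, 0.946 to 0.985 within prefrontal cortex and amygdala, and 0.949 to 0.985 between the classes. The cocaine array of the prefrontal cortex correlated better with the saline array of the amygdala (0.983) than with its own saline partner (0.965). The saline array of the prefrontal cortex likewise stood nearest the cocaine array of the amygdala (0.985). The prefrontal cocaine array also had 226 values listed at exactly 0, against 8 to 91 on the other 7 arrays. Single genes went either way on these arrays. Pvalb, the calcium-binding protein of fast-spiking interneurons, had an index of 6311 and 6775 in prefrontal cortex but 2790 and 2464 in amygdala, as labelled. Nr2f1, described below, was lower on the prefrontal cocaine and amygdala saline arrays, at 1971 and 2379, than on the prefrontal saline and amygdala cocaine arrays, at 3650 and 4198. The part of these resemblances in the results was not tested, and counts without the 2 arrays concerned are given below.

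**Figure D1:**
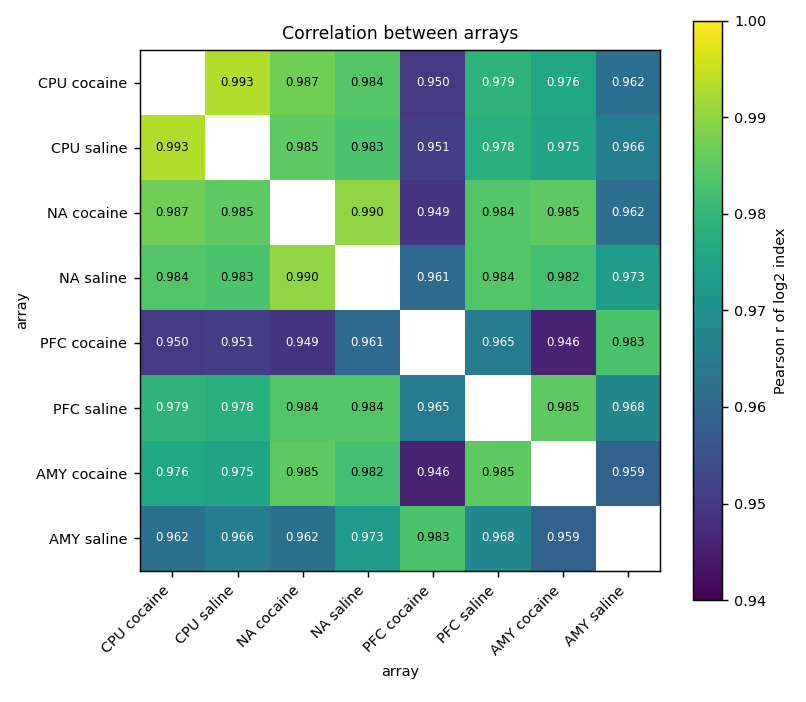
Pearson correlation of the log2 index between each pair of the 8 arrays, over 8365 probe sets (CPU, caudate putamen; NA, nucleus accumbens; PFC, prefrontal cortex; AMY, amygdala). The striatal arrays form a block at 0.983 and above, while the prefrontal cocaine array and the amygdala saline array pair with each other at 0.983.

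Of the 8696 probe sets tested, 24 (0.276%) passed an adjusted p of 0.05, 11 higher in the striatum (0.126%, 9 genes) and 13 lower (0.149%, 12 genes). The higher genes were Tac1, Rxrg, Nexn, Pcp4l1, Dgkb, Drd1, Gng7, Cdk17 and Ppp1cc. The lower genes were Olfm1, Nrn1, Vsnl1, Nr2f1, Stx1a, Gabbr2, Sv2b, Basp1, Bdnf, Sorbs2, Crhbp and Kcnk1. A fitted difference of at least 2-fold was present in 8 of the higher (0.092% of those tested) and 9 of the lower probe sets (0.103%). Without regard to the test, 28 (0.322%) were at least 2-fold higher and 20 (0.23%) at least 2-fold lower. The median difference of all probe sets tested was -0.02, and before adjustment 933 (10.7%) had a p under 0.05, of which 577 were higher (6.64%) and 356 lower (4.09%). That number was 1876 without the amygdala cocaine array, 539 without the caudate putamen cocaine array and 605 without its saline array. Of the 8365 probe sets with all values, all 4 striatal arrays lay above all 4 others for 363 (4.34%) and below them for 283 (3.38%). All 22 further probe sets of these genes had the same sign, and 3 of them passed the test.

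**Figure D2:**
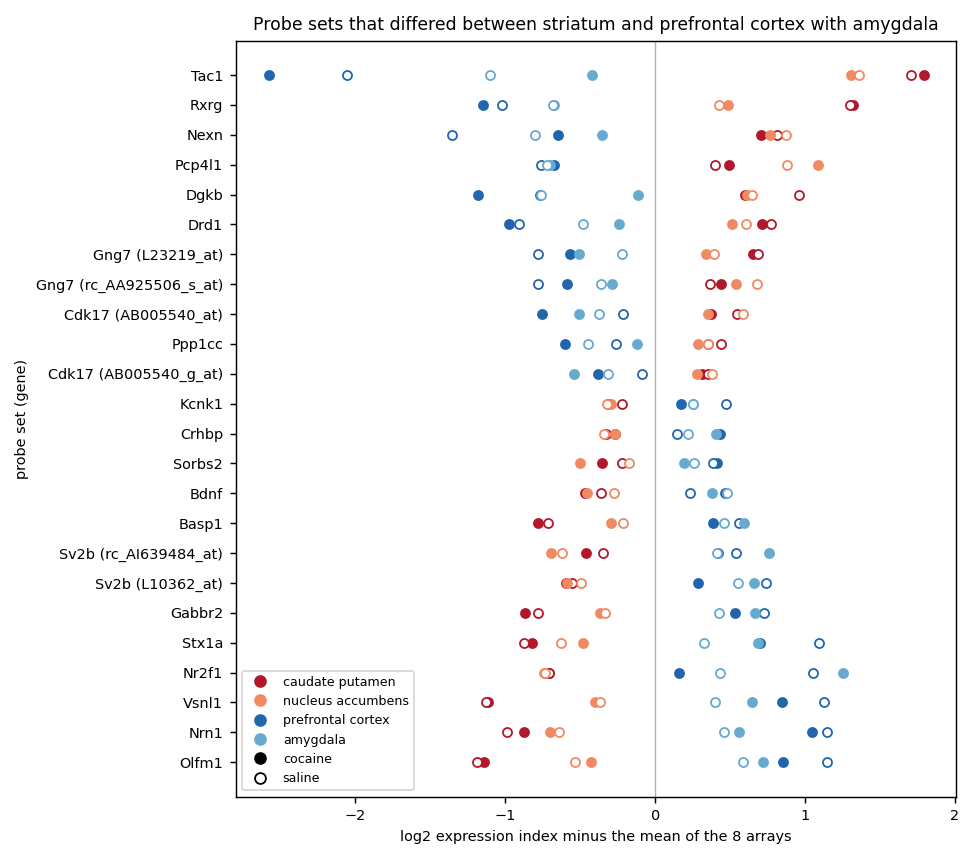
Log2 index of the 24 probe sets past an adjusted p of 0.05, each minus its own mean over the 8 arrays, ordered by the fitted difference. Red and orange points (striatum) lie on 1 side of every row and blue points (prefrontal cortex and amygdala) on the other. Rows with high levels in striatum tend to have the prefrontal arrays farthest left, Tac1 most of all.

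Tac1, which encodes the precursor of substance P and neurokinin A, had the largest difference. Its index was 23885 and 22518 in caudate putamen and 17045 and 17690 in nucleus accumbens, against 1155 and 1657 in prefrontal cortex and 5158 and 3211 in amygdala. All 4 striatal arrays stood far above the highest array of the other class. The class means were 20284 ± 3420 and 2795 ± 1800 (SD, n = 4 each), and the fit gave a log2 difference of 3.08 ± 0.41 (SE), or 8.46-fold (limma adjusted p = 0.0211). Rxrg, the retinoid X receptor gamma that pairs with other nuclear receptors on DNA, had 8827 and 8696 in caudate putamen and 4949 and 4747 in nucleus accumbens, against 1596 and 1746 in prefrontal cortex and 2215 and 2204 in amygdala. The classes did not overlap, and the caudate putamen was the highest region. Its difference was 1.76 ± 0.23 (SE; limma adjusted p = 0.0207), while 2 other Rxrg probe sets had 0.98 and 0.87 and did not pass.

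Among the genes past the threshold with an entry in the RefSeq promoter table (rat GRCr8), the promoters of the 2 with the largest positive and the 2 with the largest negative differences are shown, 250 bases before the annotated start, as the largest calls in each direction. Capitals mark matches on either strand to TGACG (the core of the cyclic AMP response element), AGGTCA (the core of nuclear receptor sites), GGGCGG (the GC box) or TATAAA (the TATA box).
Tac1, chr4:36645333-36645582, plus strand: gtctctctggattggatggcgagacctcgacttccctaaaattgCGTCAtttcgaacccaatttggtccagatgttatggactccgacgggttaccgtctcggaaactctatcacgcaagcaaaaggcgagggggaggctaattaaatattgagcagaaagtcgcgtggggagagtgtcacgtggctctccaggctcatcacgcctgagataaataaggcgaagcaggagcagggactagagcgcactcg
Rxrg, chr13:82276237-82276486, plus strand: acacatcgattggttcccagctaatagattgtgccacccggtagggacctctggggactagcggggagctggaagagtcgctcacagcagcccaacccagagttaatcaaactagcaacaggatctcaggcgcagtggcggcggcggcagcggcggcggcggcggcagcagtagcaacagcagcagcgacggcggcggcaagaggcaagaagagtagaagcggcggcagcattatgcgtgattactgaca
Olfm1, chr3:31931086-31931335, plus strand: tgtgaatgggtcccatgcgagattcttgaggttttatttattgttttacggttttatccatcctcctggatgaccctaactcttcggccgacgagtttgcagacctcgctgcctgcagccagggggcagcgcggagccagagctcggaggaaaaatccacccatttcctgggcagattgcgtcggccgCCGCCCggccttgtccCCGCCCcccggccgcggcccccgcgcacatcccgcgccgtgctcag
Vsnl1, chr6:39878557-39878806, minus strand: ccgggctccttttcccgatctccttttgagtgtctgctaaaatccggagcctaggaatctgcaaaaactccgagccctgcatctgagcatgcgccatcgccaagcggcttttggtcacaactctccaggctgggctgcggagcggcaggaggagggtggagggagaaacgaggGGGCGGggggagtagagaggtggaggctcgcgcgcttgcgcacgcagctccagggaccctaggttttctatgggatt
The Tac1 window holds a TGACG match on the reverse strand, and that of Rxrg, itself a nuclear receptor gene, holds none of the 4 motifs. The windows of Olfm1 and Vsnl1 hold 2 and 1 GC box matches.

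A promoter was listed for 8 of the 9 higher genes and 9 of the 12 lower ones. TGACG was found in 1 of the 8 (Tac1) and in 3 of the 9 (Gabbr2, Basp1 and Crhbp), against 18.2% of the 33469 promoters in the table. GGGCGG was found in 2 of the 8 (Nexn and Ppp1cc) and in 6 of the 9 (Olfm1, Vsnl1, Nr2f1, Stx1a, Gabbr2 and Basp1), against 30.5% of all. AGGTCA was found in 1 of the 8 (Pcp4l1) and 1 of the 9 (Crhbp), against 14.1% of all, and TATAAA in 1 of the 8 (Pcp4l1) and 0 of the 9, against 12.9%. No test was made of these shares, and a match of letters does not show a site that is used.

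Drd1, the dopamine D1 receptor that raises cyclic AMP, was represented by 3 probe sets, all without overlap between the classes. The one that passed had 3699 and 3861 in caudate putamen and 3216 and 3446 in nucleus accumbens, against 1150 and 1205 in prefrontal cortex and 1908 and 1621 in amygdala. Its difference was 1.30 ± 0.16 (SE; limma adjusted p = 0.0176). The probe set with the highest index separated the regions further but did not pass, with a difference of 2.56 ± 0.45 (SE; limma adjusted p = 0.0628). It read 10904 and 11001 in caudate putamen and 8166 and 8237 in nucleus accumbens, against 698 and 1081 in prefrontal cortex and 3228 and 2760 in amygdala. Its spread lay mainly between the regions of the other class, where the amygdala stood above the prefrontal cortex by 1.78 on the log2 scale of region means.

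Gng7, the gamma subunit that accompanies the olfactory type alpha subunit, had 15862 and 16217 in caudate putamen and 12787 and 13283 in nucleus accumbens, against 6819 and 5881 in prefrontal cortex and 7112 and 8664 in amygdala (log2 difference 1.04 ± 0.14, SE; limma adjusted p = 0.0197). A second Gng7 probe set had a difference of 1.01 (limma adjusted p = 0.0157). Both probe sets thus placed all 4 striatal arrays above all 4 others. Ppp1cc, a catalytic subunit of protein phosphatase 1, had 9955 and 10588 in caudate putamen and 9512 and 9958 in nucleus accumbens, against 5139 and 6506 in prefrontal cortex and 7172 and 5707 in amygdala. The 2 striatal regions were close to each other, and the difference was 0.72 ± 0.11 (SE; limma adjusted p = 0.0403). Dgkb, a diacylglycerol kinase, had 1811 and 2326 in caudate putamen and 1826 and 1869 in nucleus accumbens, against 525 and 702 in prefrontal cortex and 1104 and 705 in amygdala (1.41 ± 0.21, SE; limma adjusted p = 0.0332).

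Gnal, the olfactory type alpha subunit that couples dopamine and adenosine receptors to adenylyl cyclase, did not pass the test. It had 4737 and 5359 in caudate putamen and 5016 and 5826 in nucleus accumbens, against 913 and 885 in prefrontal cortex and 2651 and 2279 in amygdala. The classes did not overlap, and the 2 striatal regions lay together while the amygdala stood well above the prefrontal cortex. The fitted difference was 1.81 ± 0.35 (SE; limma adjusted p = 0.0816).

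**Figure D3:**
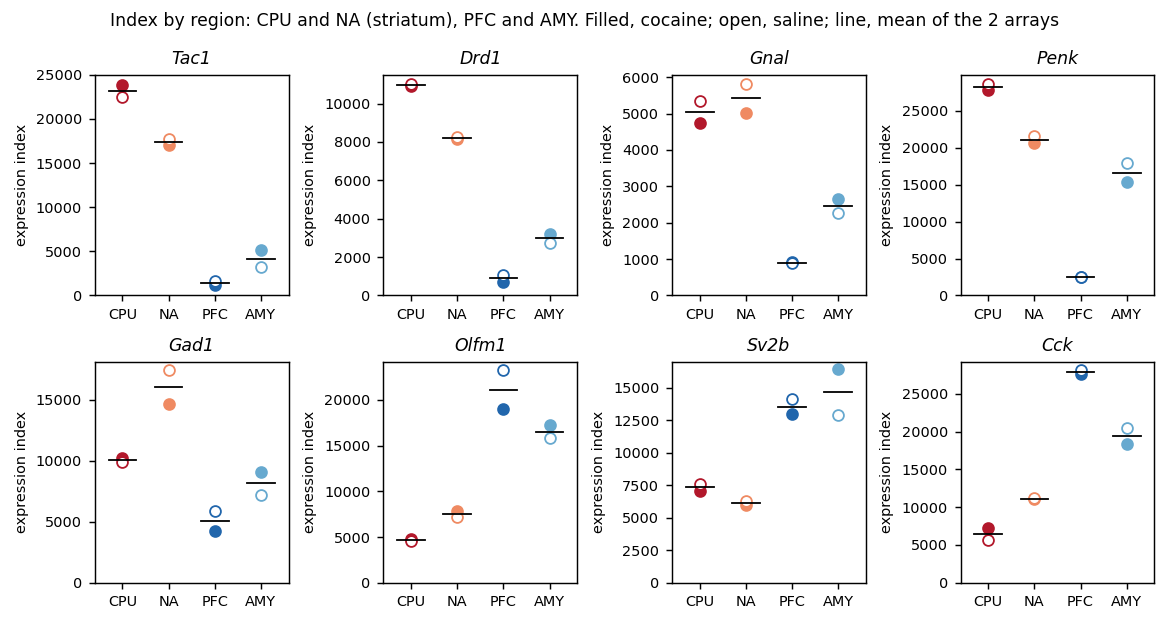
Expression index of 8 genes by region, each panel with its own axis from 0 (filled points, cocaine; open points, saline; lines, mean of the 2 arrays of a region). Drd1, Olfm1 and Sv2b are shown by their probe sets with the highest mean log2 index and all 8 values. Tac1, Drd1 and Gnal are high in both striatal regions, Penk is also high in amygdala, Gad1 is highest in nucleus accumbens, and Olfm1, Sv2b and Cck are low in both striatal regions.

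The other striatal genes past the threshold have less defined roles in these neurons. Nexn, an actin-binding protein best known from muscle, had 850 and 914 in caudate putamen and 886 and 954 in nucleus accumbens, against 332 and 203 in prefrontal cortex and 406 and 298 in amygdala (1.58 ± 0.18, SE; limma adjusted p = 0.0157). All of its values lay under an index of 1028.42, the 20th percentile of values above 0. Pcp4l1, a small relative of the calmodulin regulator Pcp4, was the gene called higher in which the nucleus accumbens exceeded the caudate putamen most. It had 3779 and 3543 in caudate putamen and 5713 and 4953 in nucleus accumbens, against 1680 and 1585 in prefrontal cortex and 1656 and 1633 in amygdala (1.43 ± 0.14, SE; limma adjusted p = 0.0112). Cdk17, a cyclin-dependent kinase of the PCTAIRE group, had 6139 and 6937 in caudate putamen and 6049 and 7111 in nucleus accumbens, against 2817 and 4097 in prefrontal cortex and 3335 and 3656 in amygdala. The saline array was the higher one in all 4 regions, and the striatal difference was 0.93 ± 0.08 (SE; limma adjusted p = 0.00636). A second Cdk17 probe set also passed, at 0.66 (limma adjusted p = 0.0178).

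On the lower side, the largest difference among the probe sets called was that of Olfm1, a secreted glycoprotein of neurons. It had 4758 and 4613 in caudate putamen and 7801 and 7239 in nucleus accumbens, against 18953 and 23234 in prefrontal cortex and 17272 and 15793 in amygdala. Its means were 6103 ± 1650 and 18813 ± 3220 (SD, n = 4 each), a log2 difference of -1.65 ± 0.20 (SE; limma adjusted p = 0.0157). The other Olfm1 probe set had -1.83 and did not pass (limma adjusted p = 0.0674). Nrn1, the membrane-anchored protein neuritin that promotes neurite growth, had 2423 and 2239 in caudate putamen and 2728 and 2846 in nucleus accumbens, against 9186 and 9850 in prefrontal cortex and 6541 and 6120 in amygdala (-1.61 ± 0.17, SE; limma adjusted p = 0.0112). Vsnl1, a neuronal calcium sensor, had 2768 and 2739 in caudate putamen and 4540 and 4652 in nucleus accumbens, against 10778 and 13096 in prefrontal cortex and 9400 and 7928 in amygdala (-1.51 ± 0.22, SE; limma adjusted p = 0.0345). For all 3 genes the order of the region means was prefrontal cortex, amygdala, nucleus accumbens and caudate putamen. Bdnf, a neurotrophin made by cortical neurons and carried to the striatum along their axons, passed on 1 of 7 probe sets. That probe set had 769 and 826 in caudate putamen and 776 and 876 in nucleus accumbens, against 1469 and 1250 in prefrontal cortex and 1379 and 1477 in amygdala (-0.78 ± 0.10, SE; limma adjusted p = 0.0157). The other 6 Bdnf probe sets lay between -1.56 and -0.03 and did not pass.

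Sv2b, a glycoprotein of the synaptic vesicle membrane, passed on both of its probe sets. The first had 5271 and 5423 in caudate putamen and 5310 and 5651 in nucleus accumbens, against 9708 and 13288 in prefrontal cortex and 12590 and 11689 in amygdala (-1.12 ± 0.10, SE; limma adjusted p = 0.00636). The second had 7057 and 7620 in caudate putamen and 5985 and 6308 in nucleus accumbens, against 12971 and 14111 in prefrontal cortex and 16481 and 12918 in amygdala (-1.07 ± 0.11, SE; limma adjusted p = 0.0113). On the first, the 2 striatal regions were nearly alike, and on the second the caudate putamen was somewhat higher. Stx1a, the syntaxin of the vesicle fusion machinery, gave unequal readings on its probe sets. The one that passed had 2035 and 1958 in caudate putamen and 2575 and 2322 in nucleus accumbens, against 5831 and 7648 in prefrontal cortex and 5775 and 4493 in amygdala (-1.40 ± 0.16, SE; limma adjusted p = 0.0157). The other overlapped between the classes, at 14767, 14581, 14753 and 13507 in striatum against 15905, 16317, 13876 and 16186 in the other class (-0.11, limma adjusted p = 0.613). Basp1, a membrane protein of growth cones and axon terminals, had 4685 and 4908 in caudate putamen and 6576 and 6934 in nucleus accumbens, against 10534 and 11865 in prefrontal cortex and 12151 and 11057 in amygdala (-1.0 ± 0.14, SE; limma adjusted p = 0.0254).

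The remaining lower genes were a receptor subunit, a transcription factor, a channel, an adaptor protein and a peptide-binding protein. Gabbr2, the subunit of the GABA-B receptor that couples to G proteins, had 2928 and 3098 in caudate putamen and 4133 and 4237 in nucleus accumbens, against 7732 and 8843 in prefrontal cortex and 8459 and 7178 in amygdala (-1.18 ± 0.14, SE; limma adjusted p = 0.0157). Its other 2 probe sets had -0.15 and -0.16 and did not pass. Nr2f1, an orphan nuclear receptor that patterns the cortex during development, had 1079 and 1080 in caudate putamen and 1052 and 1057 in nucleus accumbens, against 1971 and 3650 in prefrontal cortex and 4198 and 2379 in amygdala (-1.45 ± 0.22, SE; limma adjusted p = 0.0398). Its striatal values lay just above the 20th percentile of values, and a dimmer Nr2f1 probe set overlapped between the classes, at -0.05. Kcnk1, a leak potassium channel, had 3026 and 3235 in caudate putamen and 3073 and 3015 in nucleus accumbens, against 4238 and 5219 in prefrontal cortex and 4484 and 4495 in amygdala (-0.57 ± 0.08, SE; limma adjusted p = 0.0226). Sorbs2, an adaptor of the actin cytoskeleton, had 2140 ± 216 in striatum and 3299 ± 235 in the other class (SD, n = 4 each; -0.63, limma adjusted p = 0.0269), and its other 2 probe sets, at -0.30 and -0.06, did not pass. Crhbp, which binds the stress peptide corticotropin-releasing hormone, had 705 ± 19.5 in striatum and 1075 ± 103 in the other class (SD, n = 4 each; -0.60, limma adjusted p = 0.0298). The Crhbp values and the striatal values of Bdnf lay around or under the 20th percentile too. Among the genes called higher, Dgkb had values under it in prefrontal cortex (525 and 702) and on the amygdala saline array (705).

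The number of calls depended on how low values were handled, on how the 2 regions of a class were treated and on single arrays. With values under 1028.42 raised to it, 0 probe sets passed in limma and 826 had an unadjusted p under 0.05, with 1257 probe sets then without any spread. With the test also limited to the upper 60% by mean index, 33 passed, including 20 of the 24. This filter alone, without raising low values, gave 31, also including 20 of the 24. The called probe sets of Nexn, Dgkb, Bdnf and Crhbp fell below the filter and were not tested with it. With 1 mean per region, 2 regions against 2, 6 probe sets passed, and of the 24 these kept Nexn, Nr2f1 and 1 probe set each of Cdk17 and Sv2b. With region as a random block 61 passed, including all 24, and the consensus correlation of arrays of 1 region was -0.188. With region as a fixed effect 126 passed, and 69 without the treatment term. Without the cocaine array of the caudate putamen 3 passed, without its saline array 4, without the cocaine array of the nucleus accumbens 9 and without the saline array of the prefrontal cortex 10. Without the cocaine array of the amygdala the count was 151. Pcp4l1 and 1 probe set each of Cdk17 and Sv2b passed without each array in turn. Leaving out both the prefrontal cocaine array and the amygdala saline array gave 28 calls, of which 17 were among the 24.

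Most genes that mark striatal projection neurons had a positive difference, although few passed the test. For lists, each of 4614 genes was read from its brightest probe set by mean log2 index, among those with all 8 values. Of 22 such markers measured, 18 were positive (81.8%, against 44% of all genes), 2 were called higher (Tac1 and Rxrg) and 0 lower, against 7 (0.152%) and 8 (0.173%) of all genes. The same shares of called genes stand beside the counts of every list below. All 4 striatal arrays lay above all 4 others for 14 of the 22 and below them for 0, against 207 (4.49%) and 165 (3.58%) of all genes. The median difference of the list was 0.75, beside -0.02 over all genes. The list was chosen with earlier results of these data known, so its direction is not independent evidence.

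Among those markers, Penk, the enkephalin precursor, had 27745 and 28595 in caudate putamen and 20576 and 21566 in nucleus accumbens, against 2457 and 2462 in prefrontal cortex and 15372 and 17900 in amygdala. The amygdala was near the nucleus accumbens, so the fit gave 1.93 ± 0.66 (SE; limma adjusted p = 0.318). Arpp21, a phosphoprotein regulated by cyclic AMP, had 16092 and 15635 in caudate putamen and 7876 and 6260 in nucleus accumbens, against 1648 and 2606 in prefrontal cortex and 3773 and 3585 in amygdala (1.93, limma adjusted p = 0.074). Pcp4, which speeds the exchange of calcium on calmodulin, had 33583 and 32731 in caudate putamen and 24528 and 23120 in nucleus accumbens, against 5861 and 7127 in prefrontal cortex and 13040 and 12561 in amygdala (1.63, limma adjusted p = 0.0606). Both had the order caudate putamen, nucleus accumbens, amygdala and prefrontal cortex. Ptpn5, the striatal-enriched tyrosine phosphatase, had 20262 and 20050 in caudate putamen and 13543 and 14058 in nucleus accumbens, against 5178 and 5367 in prefrontal cortex and 8473 and 8807 in amygdala (1.31, limma adjusted p = 0.0606). Rgs9, which shortens G protein signals, had 13031 and 13115 in caudate putamen and 6124 and 5965 in nucleus accumbens, against 2695 and 2087 in prefrontal cortex and 4015 and 4581 in amygdala (1.48, limma adjusted p = 0.147). None of these 5 genes overlapped between the classes, and none passed the test in the main fit.

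Receptors of the indirect pathway had the same order of regions. Adora2a, the striatal adenosine receptor of this pathway, had 11648 and 12524 in caudate putamen and 6613 and 6902 in nucleus accumbens, against 3431 and 3301 in prefrontal cortex and 4968 and 5270 in amygdala (1.12, limma adjusted p = 0.135). Drd2, the dopamine D2 receptor, had 4977 and 5405 in caudate putamen and 3210 and 3419 in nucleus accumbens, against 2355 and 1727 in prefrontal cortex and 2592 and 2687 in amygdala (0.85, limma adjusted p = 0.166). Neither passed. Drd2, like Gad2 and Snap25 below, is named after its values were seen. The muscarinic receptor Chrm4, which opposes D1 signalling, had 886, 819, 957 and 870 in striatum and 582, 547, 727 and 687 in the other class (0.48, limma adjusted p = 0.167). All of these values lay under 1028.42. A brighter Chrm4 probe set, with its prefrontal cocaine value missing, overlapped between the classes, at 0.03 (limma adjusted p = 0.878). The cannabinoid receptor Cnr1 was high in caudate putamen only, at 6665 and 5880, with 2165 and 2193 in nucleus accumbens, against 1541 and 2875 in prefrontal cortex and 3112 and 2219 in amygdala (0.65, limma adjusted p = 0.566).

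The genes that define GABA neurons did not pass the test, and only some separated the classes. Gad1, which makes GABA, had 10191 and 9870 in caudate putamen and 14662 and 17435 in nucleus accumbens, against 4245 and 5857 in prefrontal cortex and 9106 and 7219 in amygdala (0.99 ± 0.26, SE; limma adjusted p = 0.188). Slc32a1, the vesicular GABA transporter, had 5173 and 5288 in caudate putamen and 6687 and 8205 in nucleus accumbens, against 2602 and 3271 in prefrontal cortex and 4904 and 4061 in amygdala (0.79, limma adjusted p = 0.207). For both of these probe sets, the nucleus accumbens was highest and the classes did not overlap, yet neither passed. A second Slc32a1 probe set overlapped between the classes, at 0.01 (limma adjusted p = 0.975). Gad2, the other glutamate decarboxylase, overlapped fully, with 3113, 3496, 4079 and 4572 in striatum and 5329, 3304, 3148 and 5841 in the other class (-0.17, limma adjusted p = 0.757). Its highest values were on the prefrontal cocaine and amygdala saline arrays, and the difference turned to 0.23 without these 2. Of 19 genes of GABA synthesis, transport and reception, 0 were called higher and 1 lower, Gabbr2, with a list median of -0.05.

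In the wider dopamine and cyclic AMP list, 2 of 39 genes were called higher (Gng7 and Ppp1cc) and 0 lower. All 4 striatal arrays lay above the others for 12 (30.8%, against 4.49% of all genes) and below them for 1 (2.56%, against 3.58%), and the list median was 0.07. No member of the 6 measured RGS genes was called. Rgs12 lay below, at 2752, 2909, 2550 and 2535 in striatum and 2998, 3041, 4054 and 3347 in the other class (-0.31, limma adjusted p = 0.324). Of 11 genes of the ERK cascade 0 were called, with a median of 0.02. Map2k1, the kinase that activates ERK, had 9282, 10984, 11464 and 12717 in striatum and 5976, 7386, 7199 and 10651 in the other class (0.53, limma adjusted p = 0.188). Other Map2k1 probe sets had 0.23 and -0.17.

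Of 21 measured markers of excitatory neurons of cortex and amygdala, 0 were called higher and 4 lower (Olfm1, Nrn1, Vsnl1 and Sv2b). A negative difference was found for 18 (85.7%), against 56% of all genes, and all 4 striatal arrays lay below the others for 6 (28.6%), against 3.58% of all genes. The list median was -0.14, beside -0.02 over all genes. This list too was chosen with earlier results known. Cck, the cholecystokinin precursor that cortical pyramidal cells express, had 7238 and 5707 in caudate putamen and 11048 and 11180 in nucleus accumbens, against 27640 and 28113 in prefrontal cortex and 18366 and 20542 in amygdala. It did not overlap between classes but did not pass (-1.46 ± 0.24, SE; limma adjusted p = 0.0606). Of 37 genes of the synaptic vesicle and its release, 1 was called lower (Sv2b) and 0 higher, 32 were negative (86.5%, against 56% of all genes), and all 4 striatal arrays lay below the others for 10 (27%, against 3.58% of all genes), with a median of -0.13. Snap25, a partner of syntaxin in fusion, had 19725 and 20783 in caudate putamen and 18826 and 19722 in nucleus accumbens, against 33725 and 34474 in prefrontal cortex and 24990 and 31529 in amygdala (-0.65, limma adjusted p = 0.0606). The vesicle protein Syp had 7594 and 7618 in caudate putamen and 13285 and 15572 in nucleus accumbens, against 17093 and 18743 in prefrontal cortex and 18543 and 17774 in amygdala (-0.79, limma adjusted p = 0.243). Syn2 and Syt1, at -0.73 each, overlapped between the classes, since both accumbens arrays exceeded the lowest array of the other class.

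Genes of the cytoskeleton and neurite growth were called lower for 2 of 30, Nrn1 and Basp1, and higher for 0, with 26 negative (86.7%, against 56% of all genes) and a median of -0.16. Cadps, which primes dense-core vesicles, had 2403, 2522, 3572 and 4274 in striatum and 4277, 5934, 5461 and 5021 in the other class (-0.73, limma adjusted p = 0.184). Calcium and calmodulin genes were called lower for 1 of 40 (Vsnl1), with a median of -0.08. Hpca, a calcium sensor of the same family as Vsnl1, ran the opposite way, with 25411, 24591, 19427 and 20312 in striatum and 15185, 16127, 14237 and 14298 in the other class, but did not pass (0.58, limma adjusted p = 0.0816).

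**Figure D4:**
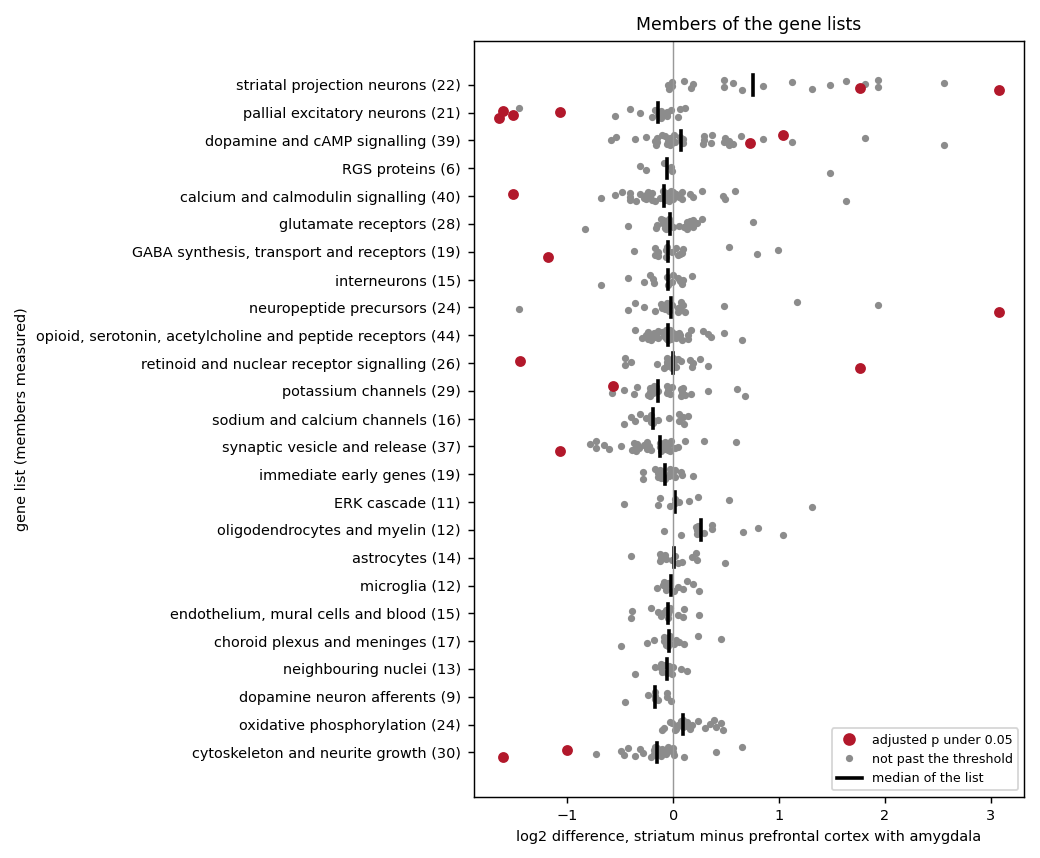
Log2 difference (striatum minus prefrontal cortex and amygdala) of each measured member of 25 gene lists, 1 probe set per gene; larger red points passed an adjusted p of 0.05 and black bars are list medians. The list of striatal projection neurons has the highest median, 0.75, and most other lists centre slightly below 0.

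Neuropeptides split by gene rather than by class. Of 24 precursors 1 was called, Tac1, and the list median was -0.03. Cartpt, the precursor of a peptide enriched in the accumbens, had 1655 and 2013 in caudate putamen and 7116 and 6999 in nucleus accumbens, against 1538 and 1446 in prefrontal cortex and 1672 and 1731 in amygdala (1.17, limma adjusted p = 0.42). The nucleus accumbens alone was high. Among 15 interneuron genes, 0 were called and the median was -0.05. Sst had 7625, 6981, 9343 and 11875 in striatum and 8840, 10091, 13294 and 10774 in the other class (-0.28, limma adjusted p = 0.569), and Vip 833, 741, 830 and 904 in striatum and 1147, 1340, 1018 and 967 in the other class (-0.43, limma adjusted p = 0.243). Pvalb, whose prefrontal and amygdala values are given above, had 2651, 2468, 2712 and 2480 in striatum (-0.68, limma adjusted p = 0.493).

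Calls in the receptor and channel lists are read beside the shares of all genes, 0.152% higher and 0.173% lower. At these shares, 0 calls in lists of this size do not stand out. Of 44 opioid, serotonin, acetylcholine and peptide receptors and of 28 glutamate receptor genes 0 were called, with medians of -0.05 and -0.04. The kainate receptor subunit Grik2 had 1886, 2089, 1788 and 1556 in striatum and 836, 1066, 1487 and 1038 in the other class (0.75, limma adjusted p = 0.145), and the postsynaptic scaffold Dlgap1 1827, 1731, 2152 and 2276 in striatum and 2894, 2683, 2524 and 2611 in the other class (-0.43, limma adjusted p = 0.172). Neither overlapped. Potassium channels were called lower for 1 of 29 (Kcnk1), with a median of -0.14. The A-type channel subunit Kcnd2 and the accessory subunit Kcnab1 had positive differences of 0.68 and 0.60 with no overlap (limma adjusted p = 0.186 and 0.185). Of 16 sodium and calcium channel genes 0 were called, with a median of -0.19, and Cacna2d1, a calcium channel subunit, had -0.47 (limma adjusted p = 0.243). Among 26 nuclear receptor and retinoid genes, 1 was called higher (Rxrg) and 1 lower (Nr2f1), with a median of -0.01. Nr2f2, the close relative of Nr2f1, had 807, 815, 908 and 884 in striatum and 1085, 893, 1541 and 1257 in the other class (-0.46, limma adjusted p = 0.303). Of 19 immediate early genes 0 were called, with a median of -0.08, and Jun had -0.29 (limma adjusted p = 0.373). Other Jun probe sets had -0.46, 0.00 and 0.05.

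Markers of other cells were read on the same arrays. Of 12 oligodendrocyte and myelin genes, 0 were called. A positive difference was found for 11 (91.7%, against 44% of all genes), all striatal arrays lay above the others for 5 (41.7%, against 4.49%), and the median was 0.26. The summed index of this list was 120631 to 165917 in striatum and 95773 to 122242 in the other class, highest in caudate putamen. Cnp, a myelin enzyme, had 18425 and 19899 in caudate putamen and 13078 and 14678 in nucleus accumbens, against 7792 and 10200 in prefrontal cortex and 12256 and 11505 in amygdala (0.66, limma adjusted p = 0.188). Ugt8, which makes myelin galactolipids, and Mobp, a myelin protein, had 1.04 and 0.80 (limma adjusted p = 0.22 and 0.303). A dimmer Ugt8 probe set, with class means of 350 in striatum and 373 in the other class, had -0.10. The part of myelin content in the neuronal differences was not tested. Ttr, the choroid plexus carrier of thyroid hormone, had 11221 and 34312 in caudate putamen and 1832 and 1700 in nucleus accumbens, against 2262 and 1692 in prefrontal cortex and 29441 and 41154 in amygdala (-0.49, limma adjusted p = 0.882). It was thus high in 1 region of each class. The list of 17 choroid plexus and meningeal genes had 0 calls, a median of -0.04 and a summed index of 70541 to 101088 in striatum and 78834 to 109589 in the other class. Its part in the results was not tested.

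Among 14 astrocyte genes, 0 were called and the median was 0.01. Slc4a4, a bicarbonate transporter, had 6131, 6090, 8018 and 8238 in striatum and 4283, 4779, 5556 and 5630 in the other class (0.49, limma adjusted p = 0.232), and the matricellular protein Sparcl1 27600, 31609, 30892 and 32061 in striatum and 39413, 42502, 35517 and 44543 in the other class (-0.40, limma adjusted p = 0.147). S100b had 0.22. The 12 microglial genes, the 15 endothelial, mural and blood genes and the 13 genes of neighbouring nuclei had 0 calls each, with medians of -0.02, -0.05 and -0.06. The 9 genes of dopamine neurons, whose axons end in the striatum, also had 0 calls, and all 9 were negative, against 56% of all genes, with a median of -0.17. Nr4a2, a transcription factor of those neurons, had -0.46 (limma adjusted p = 0.337). The summed index of these 9 genes was 29002 on the prefrontal cocaine array and 30398 on the amygdala saline array. It was 25665 and 26307 on the prefrontal saline and amygdala cocaine arrays, and 24270 to 25743 in striatum. The part of the resembling arrays in the negative sign was not tested. Further probe sets of list members had 0.09 for Slc6a3, 0.08 for Slc18a2, and -0.04 and 0.10 for Ret. Of 24 oxidative phosphorylation genes 0 were called, 20 were positive (83.3%, against 44% of all genes) and the median was 0.10. Ndufa5 and Ndufb5 of complex I had 0.47 and 0.45 (limma adjusted p = 0.235 and 0.285), and the amygdala cocaine array had the lowest summed index of this list, 293672, against 353794 to 384065 on the other 3 arrays of its class.

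The 4 regions did not contribute equally. At least 2-fold apart by region means, of 8365 probe sets, were 119 between caudate putamen and prefrontal cortex, 72 higher (0.861%) and 47 lower (0.562%) in caudate putamen. Between nucleus accumbens and prefrontal cortex there were 86, 58 higher (0.693%) and 28 lower (0.335%). Between caudate putamen and amygdala there were 79, 39 higher (0.466%) and 40 lower (0.478%). Between nucleus accumbens and amygdala there were 36, 21 higher (0.251%) and 15 lower (0.179%). Within a class, 40 were that far apart between caudate putamen and nucleus accumbens and 25 between prefrontal cortex and amygdala. Of the 4 pairs across the classes, nucleus accumbens and amygdala had the fewest. Pairs that share no array can be set against each other. They are not fully separate, since the prefrontal cocaine and amygdala saline arrays, which fall in different pairs, correlated at 0.983. The part of this resemblance in the values of r below was not tested. The difference of caudate putamen and prefrontal cortex correlated with that of nucleus accumbens and amygdala with r of 0.48 across probe sets, which are not independent replicates. Both differences were at least 2-fold for 9 probe sets on the higher side and 7 on the lower side. For caudate putamen with amygdala and nucleus accumbens with prefrontal cortex, r was 0.41, with 16 and 10 probe sets.

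A difference of at least 2-fold in all 4 pairs of regions was met by probe sets of Tac1, Drd1, Gnal, Rxrg, Nexn, Pcp4l1 and Dgkb on the higher side. Hmgb2 met it too, but its indices were 160 or less and overlapped between the classes. On the lower side it was met by probe sets of Olfm1, Nrn1, Nr2f1, Stx1a, Sv2b and Bdnf. The probe sets of Drd1, Gnal and Bdnf among these had not passed the test. All values of that Bdnf probe set, 205 to 972, lay under 1028.42. For Tac1 the log2 differences were 4.07 for caudate putamen and prefrontal cortex and 2.09 for nucleus accumbens and amygdala. Penk had 3.52 and 0.34 in the same pairs, and Cartpt 0.29 and 2.05. Of the 11 probe sets called higher, 10 stood higher in amygdala than in prefrontal cortex, and 7 were higher in caudate putamen than in nucleus accumbens. Of the 13 called lower, 8 were higher in nucleus accumbens than in caudate putamen, and 7 were higher in prefrontal cortex than in amygdala.

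**Figure D5:**
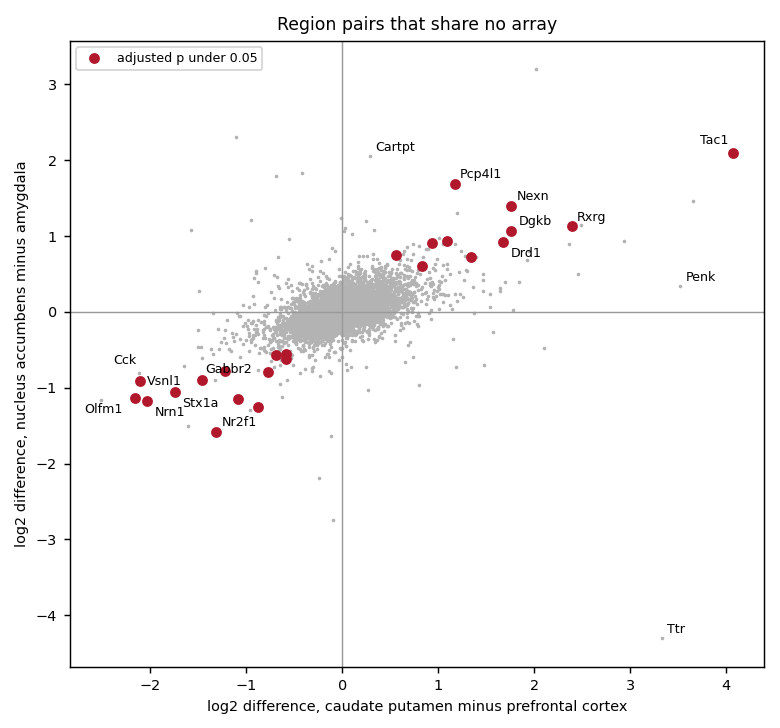
Log2 difference of region means, caudate putamen minus prefrontal cortex (horizontal) and nucleus accumbens minus amygdala (vertical), for 8365 probe sets; red points passed an adjusted p of 0.05. Red points lie in the upper right and lower left, while Penk is far from 0 only horizontally, Cartpt only vertically, and Ttr has opposite signs (3.33 and -4.30).

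Whether the striatal difference was the same on cocaine and saline arrays was asked with an interaction of class and treatment. The limma fit called 0 of 8696 probe sets (0%) at an adjusted p of 0.05 and gave an unadjusted p under 0.05 for 21. That number was 13 without the cocaine array of the caudate putamen or of the nucleus accumbens, 38 without the caudate putamen saline array, 341 and 93 without the prefrontal cocaine or saline array, and 330 and 49 without the amygdala cocaine or saline array. Leaving out both arrays of a region left 1 class with a single region, 1 array per treatment. The treatment difference of that class then came from that region alone, so counts from those fits are not given. Top1, a DNA topoisomerase, came nearest. It had 2868 and 3027 on the cocaine arrays of the caudate putamen and nucleus accumbens and 1760 and 1725 on those of the prefrontal cortex and amygdala, while the saline arrays had 3101 and 3039 in striatum and 2502 and 2911 in the other class. Its striatal difference was 0.76 with cocaine and 0.19 with saline (interaction 0.57 ± 0.17, SE; limma adjusted p = 1). Each combination of class and treatment had 2 arrays, 1 per region, so the test had 4 residual degrees of freedom. The 21 probe sets with an unadjusted p under 0.05 were far fewer than a share of 0.05 of the 8696. About that share would be expected without any interaction. The 0 calls therefore cannot show that the striatal difference was the same with cocaine and saline.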

How the data were processed

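Total RNA of dissected rat brain regions was measured on single-colour oligonucleotide arrays, 1 array per region and treatment. The authors deposited linear intensities, per the labels the dChip expression index, in which 1 model summarises all probes of a probe set. Neither the version of dChip nor its scaling across arrays was stated in the labels used, and array medians lay between 2208 and 2303. Precision is limited by the number of arrays and by the number of regions, 2 in each class. The main fit counted the 2 arrays of a region as separate, although they are not independent of each other. Regions, not arrays, would be the units of a wider claim about the classes.

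No further normalization was applied. Of 8740 probe sets left after 59 controls were removed, 7006 had a single gene symbol in the platform annotation, 308 had several and 1426 had none. Only those with a single symbol are named. Of these symbols 6985 were found unchanged in the GRCr8 gene table. Exact zeros, 433 on the 8 arrays, were treated as missing, and 8696 probe sets with at most 1 missing value per class were tested, the other 44 not. Log2 indices were fitted in limma 3.58.1 (R 4.3.3) with class and treatment as terms and an intensity trend, with 5 residual degrees of freedom and Benjamini-Hochberg adjustment at 0.05. The fit was tested on simulated data in which all arrays were independent. That test therefore did not cover differences between regions of a class or the resemblance of arrays across regions. Python 3.11.15 was used for summaries.

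The rule for named genes took those past the threshold without overlap between classes, the 5 markers (Drd1, Tac1, Gnal, Olfm1 and Sv2b), from each of 25 gene lists the 4 members of largest absolute difference, and 5 genes at each end of the interaction. To save space, some list members and all interaction genes but Top1 are counted and not named, a choice made after their values were seen. Members and lists were chosen with earlier results of these data known. Lists are described by counts and medians, with no test. Alternatives covered low values, filter, scaling, variance model, treatment and region terms, and left-out arrays and regions.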

Additional observations from a re-analysis of the deposited data

Results flagged for a closer look

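In each of the 74 probe sets of the named genes that were followed, the 4 arrays of each class were checked for 1 array far from the other 3, which made 148 groups and gave 5 cases. Chance alone gives about 1 in 20 groups. For Dgkb, the saline array of the caudate putamen had an index of 2326, above 1811 to 1869 on the other 3 striatal arrays. For Ntsr2, a neurotensin receptor, the cocaine array of the prefrontal cortex had 4744, below 6258 to 6406 on the other 3 arrays of its class, while the striatal arrays had 6912 to 8166 (0.36, limma adjusted p = 0.264). For the second probe set of Nexn, the cocaine array of the amygdala had 601, above 474 to 485 on the other 3 arrays of its class. For the Stx1a probe set that overlapped between the classes, the saline array of the nucleus accumbens had 13507, below 14581 to 14767 in the other striatal arrays, and the cocaine array of the amygdala had 13876, below 15905 to 16317 in the other arrays of its class.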

How the results depend on the processing

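Of 24 probe sets called, 20 stayed so in the upper 60% by mean index, which left out those of Nexn, Dgkb, Bdnf and Crhbp. Under median scaling 21 stayed so, under quantile normalization 20 and without an intensity trend 20. Over 616 combinations of the 24 probe sets and the alternatives, 383 kept the call, 233 lost it and 0 turned direction. The call was lost most often for Ppp1cc (17 of 26 alternatives), Crhbp (16 of 24), Dgkb (15 of 24) and Nr2f1 (14 of 26). It was lost least often for 1 probe set each of Cdk17 and Sv2b (3 of 26 each). The count of calls was 0 with low values raised to the 20th percentile, with or without zeros raised too, 69 without a treatment term, 61 with region as a random block, 126 with region fixed, 6 with 1 mean per region and 62 with all 10 arrays. Calls of at least 2-fold numbered 0, 0, 30, 27, 33, 4 and 29 in the same order, beside 17. Leaving out 1 array gave 3 to 151 calls, 2 to 37 of them 2-fold, and 0 to 1 interaction calls. Without the prefrontal cocaine and amygdala saline arrays and without a treatment term there were 46. Without both arrays of the amygdala, caudate putamen, nucleus accumbens or prefrontal cortex there were 92, 2, 37 and 14, with 44, 2, 24 and 10 of at least 2-fold. The share of higher calls, 45.8%, was 76.8% without the amygdala cocaine array (116 higher and 35 lower), 58.7% with region fixed (74 and 52) and 56.5% with all 10 arrays (35 and 27). The interaction gave 1 call with zeros raised.

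For 50 probe sets not called, 96 of 1286 combinations gave a call. Of 26 alternatives, the brightest Drd1 probe set was called in 10, Pcp4, Cck and Snap25 in 9 each, and Ptpn5 in 8. Gnal was called in 6, Arpp21 in 5, Penk in 2 and Rgs9 in 1. In 12 combinations the direction turned. Cnr1 had -0.11 without the caudate putamen. Ttr had -1.48 to 0.36 without single arrays (0.32 without the amygdala cocaine array, 0.36 without its saline array, and 0.11 and 0.31 without those of the nucleus accumbens), 1.59 without the amygdala and 1.25 without the nucleus accumbens. Gad2 had 0.23 without the prefrontal cocaine and amygdala saline arrays, with or without a treatment term, and 0.03 without the caudate putamen. A Sorbs2 probe set not called had -0.23 to 0.04 without single arrays, 0.04 without the prefrontal saline one, and 0.13 without the prefrontal cortex. The causes were not tested. Alternatives that raise low values together with the filter, or leave out those 2 arrays, were added after the data were seen. Cocaine and saline arrays of a region were paired through the region terms above. No paired analysis was possible between the classes because no label ties a striatal array to a prefrontal or amygdala array.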
